A study of Mus musculus with 12 samples.

Results

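The mitochondrial ribosomal protein genes were taken as every gene of the deposited table whose symbol begins with Mrpl or Mrps followed by a number and, in some, 1 further letter, and which had a normalized count of 10 or more in at least 3 libraries. All 77 symbols of that form met the limit, and they made up 77 of the 13269 genes tested. The libraries came from GFP astrocytes sorted from the spinal cords of male and female mice, to ask what loss of the homeobox transcription factor Nkx6-1 does to spinal astrocytes in each sex. The 4 groups were controls and cKO of either sex, where cKO stands for the conditional knockout of Nkx6.1 as labelled, with 3 labelled libraries each. All libraries, controls included, carried the genotype label Aldh1l1-GFP, an astrocyte reporter. The labels give neither the age of the mice, nor the driver of the recombination, nor the part of Nkx6-1 removed, nor the animals behind the replicates. P-values here hence reflect the spread among libraries alone, and that spread may be technical.

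The library labelled male cKO 2 repeated another one. Its recovered reads differed from those of female cKO 2 by no more than sampling noise, with a chi-square per degree of freedom of 1.06 over 10204 genes, against 15.2 to 145 for the other 65 pairs. It also held 3546 reads of Xist and 0 reads of Y-linked genes, so it went against its sex label. The pair was counted as 1 sample, under the female label, which left 2 male cKO, 3 male control, 3 female control and 3 female cKO libraries in every comparison.

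Depth was 2246412 to 9054934 reads in genes per library, of which 1674 to 8133 fell in the 77 members, between 0.0666% and 0.0928% of the reads. The ribosomal RNA precursor Rn45s took 20.9% to 40.6%, and without its reads the members' share was 0.0890% in male cKO 1, the lowest, to 0.153% in male cKO 3, the highest. Nkx6-1 had 3, 9 and 2 reads in male controls and 19, 7 and 12 in female controls. It had 0 reads in male cKO 1, female cKO 1 and female cKO 2, but 18 in the library labelled male cKO 3 and 19 in the library labelled female cKO 3, so each direction below that rests on these last libraries carries that doubt. Astrocyte markers were present in every library, and none of the 15 was at 0 throughout a group. Summed over these 15 genes, normalized counts were 22348 to 58457 in male controls and 104964 to 124202 in male cKO libraries. The sums were 22637 to 98349 for female controls and 51342 to 108706 for female cKO. The 15 oligodendrocyte markers summed to 141981 to 462621 over the same libraries. Per kilobase of transcript, the median oligodendrocyte marker stood at 986 normalized counts and the median astrocyte marker at 592, so the sorted cells came with transcripts of another cell type. In such bulk samples, fewer cells of a type and less RNA per cell cannot be told apart.

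Mitochondria carry their own ribosome, which makes the few respiratory chain and ATP synthase subunits encoded in mitochondrial DNA. Its RNAs come from the mitochondrial genome, whereas all its proteins are encoded in the nucleus, made in the cytosol and imported. Many of these proteins descend from the bacterial ancestor of mitochondria and have a bacterial counterpart; others are found only in mitochondrial ribosomes. In astrocytes, as in other cells, this ribosome is needed for oxidative phosphorylation. The mitochondrially encoded genes themselves were not analysed here.

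By their roles, 50 members belong to the large subunit, which joins amino acids into the chain, and 26 to the small subunit, which reads the messenger RNA. Mrps36 was assigned to neither, because its protein is now placed with the 2-oxoglutarate dehydrogenase complex. Of the rest, 48 have a bacterial counterpart and 28 are specific to mitochondria. Mrps30 and Mrps18a carry small-subunit names, yet their proteins sit in the large subunit and were counted there. The members lay on 17 chromosomes, none of them on the sex chromosomes. In the GENCODE annotation of GRCm38, the same assembly as mm10, exons of 29 members overlapped those of another gene, 25 of them on the opposite strand. A near-identical stretch in another annotated gene (identity of at least 95% over at least 50% of the coding length) was found for 20 members. For Mrpl33, Mrpl43 and Mrpl53 that gene was the overlapping one at the same place, not a separate copy. The sources used here do not say if counting used strand, so values of these members are uncertain.

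The promoters of the members carried a mixed set of motifs. RefSeq promoter windows of 300 bases, 250 before to 50 after the start, were at hand for 68 members. They were at hand for 10076 tested genes, and the shares of tested genes below are of these. A gene with several windows counted if any of its windows held the motif. The ETS-factor motif CCGGAAG, which GABP also binds, stood on either strand in 25 of the 68 members (36.8%), against 18.8% of tested genes. The NRF1 motif, GCGCA and GCGC with any 1 base between them, stood in 13 (19.1%), against 11.05%, and the YY1 motif AAGATGGCG in 8 (11.8%), against 3.39%. At least 1 of these 3 was found in 40 members (58.8%) and in 29.5% of tested genes. Among 57 cytosolic ribosomal protein genes with a window, the shares were 40.4% for ETS, 10.53% for NRF1, 5.26% for YY1 and 52.6% for any of the 3. The SP1 motif GGGCGG was found in 34 of the 68 members and in 68.4% of tested genes. The CCAAT box CCAAT was in 39.7% against 42.8%, and the TATA box TATAAA in 7.35% against 8.88%. The cyclic AMP response element TGACGTCA was in 2 members (2.94%) against 3.58%, and the E-box CACGTG in 5 (7.35%) against 11.3%. Each motif was searched on both strands by itself, and matches of different motifs may share bases. These shares describe letters in a window and were not tested. To show the range of these starts, the 150 bases before the RefSeq start (GRCm38.p6) are printed for 5 of the 8 members that lead the averaged comparison, 5′ to 3′ on the gene's strand, with matches to the motifs above on either strand in capitals.
Mrps14, chr1:160195065-160195214, plus strand: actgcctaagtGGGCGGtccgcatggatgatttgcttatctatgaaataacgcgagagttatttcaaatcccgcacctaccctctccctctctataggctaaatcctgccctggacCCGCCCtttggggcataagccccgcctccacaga
Mrps15, chr4:126046778-126046927, plus strand: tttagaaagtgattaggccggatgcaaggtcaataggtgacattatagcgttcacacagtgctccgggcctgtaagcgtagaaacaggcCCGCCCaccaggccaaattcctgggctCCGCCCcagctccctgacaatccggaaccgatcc
Mrpl17, chr7:105811088-105811237, minus strand: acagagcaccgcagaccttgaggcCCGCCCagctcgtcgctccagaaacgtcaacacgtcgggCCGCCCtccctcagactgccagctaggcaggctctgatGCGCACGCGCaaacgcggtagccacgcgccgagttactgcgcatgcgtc
Mrpl27, chr11:94653641-94653790, plus strand: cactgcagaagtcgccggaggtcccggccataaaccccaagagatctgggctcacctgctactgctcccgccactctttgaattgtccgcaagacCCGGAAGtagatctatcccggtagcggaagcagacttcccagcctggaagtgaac
Mrps31, chr8:22411190-22411339, plus strand: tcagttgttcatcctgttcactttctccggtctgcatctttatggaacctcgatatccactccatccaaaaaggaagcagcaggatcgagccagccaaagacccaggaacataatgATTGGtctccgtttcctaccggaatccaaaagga
In these stretches Mrps14 and Mrps15 showed SP1 matches only, each at 2 places, and Mrpl17 held an NRF1 match at -49 to -40 besides 2 SP1 matches, counting back from the base before the start as -1. Mrpl27 held an ETS match at -55 to -49, and Mrps31 a CCAAT box on the opposite strand. Mrps14, Mrps15, Mrpl17 and Mrpl27 were the 4 members with a positive averaged fold change at an unadjusted p under 0.05, and their stretches had no motif of the 8 in common.

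Levels were compared between genes as normalized counts per kilobase of transcript, since longer transcripts give more reads. The median member stood at 29.9 per kb over the 11 libraries, against 25.3 for the 12373 tested genes with an annotated length. For 76 of the 77 tested genes of cytosolic ribosomal proteins, those with a length, the median was 494. That is a 16.5-fold gap between the medians of the 2 ribosomes. No member reached the lower quartile of the cytosolic ribosomal protein genes. Members ranged from percentile 12.002 to percentile 93.9 of tested genes with a length, and the highest exceeded the lowest 35.5-fold per kb of annotated transcript. The proteins are built into 1 particle, but this ratio depends on transcript length as well as on counts. Without the library labelled male cKO 3, which held the highest value of Mrps35, the lowest member, that ratio was 61.1-fold. Without female cKO 2, which held the highest value of Mrps21, it was 28.2-fold, with Mrpl52 as the highest member. Leaving out certain other libraries made Mrpl15 or Mrps26 the lowest member. Even so, 51 members lay within 2-fold of the member median. The median was 27.8 per kb in the large and 30.2 in the small subunit, and 33.4 for members with a bacterial counterpart against 21.9 for mitochondria-specific ones. The transcript length of each gene was the median of its principal coding transcripts, and another choice of transcript would give other values. Length also split the extremes. The highest members, Mrps21, Mrpl52, Mrpl30, Mrps36 and Mrpl42, had lengths of 418 to 701 bases. The lowest, Mrps35, Mrpl15, Mrps26, Mrps30 and Mrps25, had 3319 to 6073 bases. Normalized counts of Mrps25 and Mrpl52 overlapped. Whether these lengths hold in the sorted cells was not tested.

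**Figure D1:**
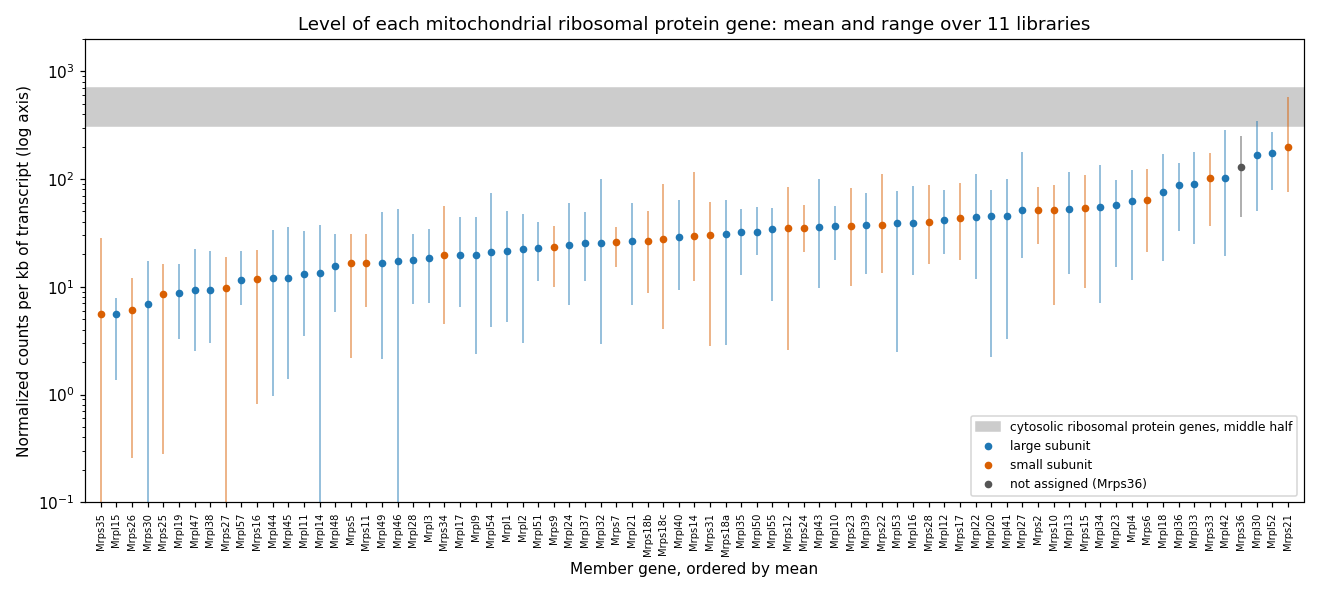
Mean (dot) and range (line) of normalized counts per kb of transcript for each of the 77 genes over 11 libraries, on a log axis, coloured by subunit. The grey band spans the lower to the upper quartile of cytosolic ribosomal protein genes. Means climb from 5.58 for Mrps35 to 198 for Mrps21, and lines that reach the lower edge at 0.1 mark genes with 0 reads in a library.

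The highest member was Mrps21, a small-subunit protein with a bacterial counterpart, at 198 ± 137 per kb (SD, n = 11). Its normalized counts were 88.4, 49.2 and 111 (male control), 90.5 and 62.7 (male cKO), 33.8, 51.8 and 92.7 (female control) and 41.1, 257 and 93.9 (female cKO). Female cKO 2 stood above all others for this gene. Next came Mrpl52, a mitochondria-specific large-subunit protein, at 174 ± 64.5 per kb, with normalized counts of 41.7, 48.8 and 70.7 (male control), 52.1 and 75.5 (male cKO), 110.1, 33.4 and 96.5 (female control) and 75.2, 114 and 82.001 (female cKO). Mrpl30, the counterpart of bacterial L30, followed at 168 ± 98.7 per kb, with counts of 108, 89.2 and 163 (male control), 33.3 and 85.5 (male cKO), 75.01, 83.5 and 222 (female control) and 45.2, 228 and 89.5 (female cKO). Mrps36 averaged 129 ± 71.8 per kb and its counts were 86.9, 52.96 and 137 (male control), 65.7 and 159.6 (male cKO), 70.7, 31.2 and 126 (female control) and 50.8, 176 and 41.7 (female cKO). It has 4 near-identical copies in the annotation. Mrpl42, specific to mitochondria, averaged 102 ± 70.6 per kb and had counts of 39.2, 87.2 and 75.01 (male control), 12.8 and 189.5 (male cKO), 45.5, 44.5 and 66.02 (female control) and 36.2, 54.04 and 92.4 (female cKO). The SDs of neighbours in this order exceeded the gaps between them. These SDs describe the spread of the libraries, and the order within the top 5 was not tested.

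At the other end stood Mrps35, a mitochondria-specific small-subunit protein, with 5.58 ± 7.77 per kb (SD, n = 11). Its counts were 11.1, 6.67 and 12.9 (male control), 0 and 117 (male cKO), 4.30, 12.2 and 22.9 (female control) and 29.9, 13.5 and 25.3 (female cKO), with the library labelled male cKO 3 high and male cKO 1 at 0 reads. Mrpl15, whose bacterial counterpart is L15, averaged 5.61 ± 2.20 per kb from counts of 33.2, 26.3 and 15.002 (male control), 29.02 and 19.9 (male cKO), 31.97, 12.2 and 31.7 (female control) and 22.97, 5.79 and 31.3 (female cKO). Mrps26, specific to mitochondria, had 6.14 ± 4.76 per kb and counts of 12.1, 37.1 and 51.4 (male control), 33.3 and 4.27 (male cKO), 41.8, 1.11 and 10.2 (female control) and 48.03, 1.93 and 47.7 (female cKO). Every group held both low and high libraries for Mrps26. Mrps30 had 6.93 ± 5.17 per kb, and its counts of 22.6, 12.1 and 12.9 (male control), 34.1 and 2.85 (male cKO), 57.8, 34.5 and 11.4 (female control) and 34.8, 0 and 29.8 (female cKO) included 0 reads in female cKO 2. Mrps25, specific to the mitochondrial small subunit, had 8.59 ± 4.42 per kb and counts of 85.9, 37.5 and 49.3 (male control), 1.71 and 99.7 (male cKO), 53.5, 40.1 and 43.2 (female control) and 36.9, 50.2 and 76.04 (female cKO). Exons of Mrps25 share 3533 bases with Nr2c2 on the opposite strand, so its value is uncertain. Again the SDs exceeded the gaps between neighbours, and the order of these 5 genes was not tested.

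The stalk of the large subunit calls translation factors to the ribosome. Mrpl12, the counterpart of bacterial L12, which forms the mobile stalk and is also reported to bind the mitochondrial RNA polymerase, averaged 41.9 ± 18.7 per kb (SD, n = 11). Its counts were 47.2, 28.8 and 51.4 (male control), 26.5 and 91.2 (male cKO), 67.6, 32.8 and 54.6 (female control) and 57.8, 104 and 44.7 (female cKO), and the groups overlapped. Mrpl11, at the base of the stalk, averaged 13.1 ± 8.56 per kb and had counts of 12.1, 48.4 and 55.7 (male control), 99.9 and 12.8 (male cKO), 36.9, 10.6 and 24.1 (female control) and 45.9, 54.04 and 37.3 (female cKO). In females all 3 cKO libraries lay above the 3 controls for Mrpl11, whereas the male groups overlapped. Mrpl10, which anchors the stalk, averaged 36.3 ± 14.1 per kb.

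Several members are known from inherited human disorders of mitochondrial translation. Mrpl3, a core large-subunit protein, averaged 18.5 ± 7.01 per kb and had counts of 73.9, 79.2 and 27.9 (male control), 45.2 and 92.6 (male cKO), 135, 70.1 and 67.3 (female control) and 82.8, 81.1 and 52.2 (female cKO), with overlapping groups. Mrpl44, a mitochondria-specific protein with a ribonuclease III fold, averaged 11.96 ± 9.69 per kb and had counts of 4.52, 15.4 and 8.57 (male control), 16.2 and 17.1 (male cKO), 36.9, 13.4 and 15.2 (female control) and 1.39, 48.2 and 10.4 (female cKO). Female cKO libraries included both its lowest and its highest value. Mrps22, specific to mitochondria, averaged 37.6 ± 27.2 per kb from counts of 43.2, 31.3 and 53.6 (male control), 46.9 and 21.4 (male cKO), 23.4, 25.6 and 132 (female control) and 16.01, 65.6 and 35.8 (female cKO), where female control 3 stood highest. Mrps16, the counterpart of bacterial S16, averaged 11.8 ± 7.86 per kb and is described with the female comparison.

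Mrps12, the counterpart of the bacterial decoding protein S12, averaged 35.1 ± 23.6 per kb and its counts were 17.1, 26.3 and 34.3 (male control), 12.8 and 68.4 (male cKO), 53.5, 12.8 and 27.9 (female control) and 2.09, 28.9 and 25.3 (female cKO), the lowest in female cKO 1. The 3 descendants of bacterial S18 occupy different places on the mitochondrial ribosome. Mrps18a, in the large subunit, averaged 31.2 ± 19.2 per kb, Mrps18b, in the small subunit, 26.8 ± 14.4, and Mrps18c, which holds the place of the bacterial protein, 28.01 ± 23.95. The gaps between these 3 levels were smaller than their SDs over libraries, and the differences were not tested. Counts of Mrps18b, which has a near-identical copy, were 9.55, 39.6 and 53.6 (male control), 29.9 and 18.5 (male cKO), 19.7, 38.4 and 19.04 (female control) and 23.7, 54.04 and 11.9 (female cKO). Its groups overlapped in both sexes.

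Libraries differed in the level of the whole family, and the 2 male cKO libraries stood at opposite ends. On the log2 scale of normalized count + 1, the median member was at 5.09, 5.20 and 5.45 in male controls, 4.82 in male cKO 1 and 5.67 in the library labelled male cKO 3. It was 5.54, 5.06 and 5.29 in female controls and 5.30, 5.50 and 5.26 in female cKO libraries. Male cKO 1 was thus the lowest of the 11 libraries and male cKO 3 the highest. Medians of all tested genes stayed between 5.999 and 6.15. Scaling by 1 factor per library tends to level those all-gene medians, so they are a reference and not a separate result. The pooled SD of the library median within groups was 0.342. Of the 77 members, 23 had their lowest value in male cKO 1, against 14.8% of tested genes, and 18 had their highest in male cKO 3, against 13.2%. Male cKO 1 had 3 members at 0 reads and 14 at 5 reads or fewer, at a depth of 5078344 reads. Between libraries of 1 group, member counts differed by a chi-square per degree of freedom of 5.86 to 21.7 over 10 pairs, well beyond counting noise.

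**Figure D2:**
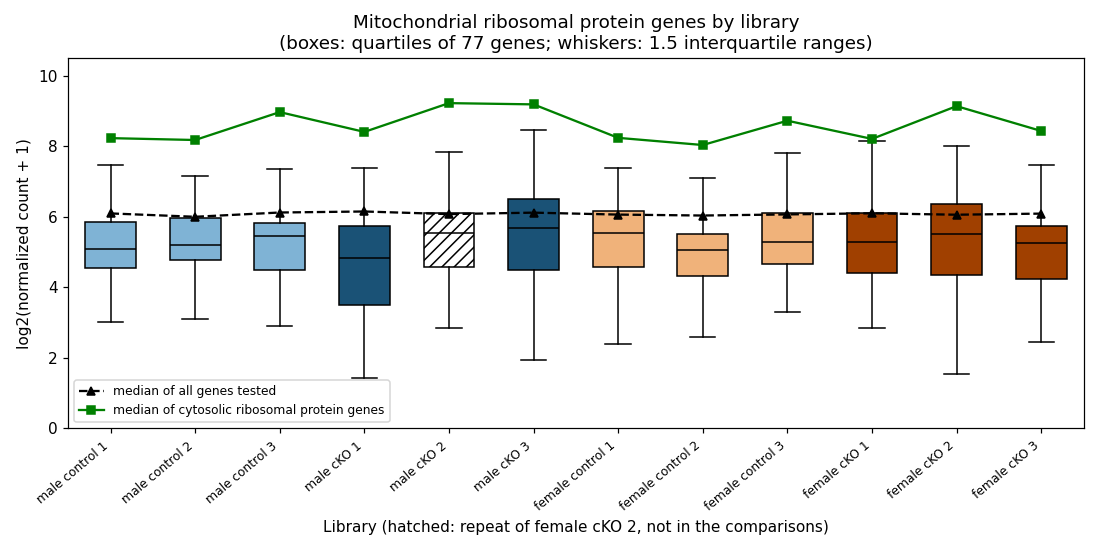
Boxes show the 77 genes in each of 12 libraries as log2(normalized count + 1), with the median of all tested genes (triangles, dashed) and of cytosolic ribosomal protein genes (squares). Male cKO 1 has the lowest member median, at 4.82, and male cKO 3 the highest, at 5.67. The tested-gene medians stay flat, which the scaling by library favours.

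The cytosolic ribosomal protein genes followed this order only in part. Their medians were 8.23, 8.18 and 8.97 in male controls and 8.41 and 9.19 in male cKO libraries. Among females they were 8.24, 8.03 and 8.72 in controls and 8.21, 9.14 and 8.43 in cKO libraries. Male cKO 3 was the highest of the 11 libraries in both families. Male cKO 1, the lowest library for mitochondrial members, was among the middle ones here. The gap between the medians of the 2 families ran from 2.70 in female control 1 to 3.63 in female cKO 2.

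Averaged over the sexes, no member passed the threshold when cKO was compared with control, and the family stood near the middle of all genes. Here 0 of 77 members and 0 of 13269 tested genes had a limma adjusted p under 0.05 (0.0% called), with 1128 genes at an unadjusted p under 0.05. edgeR on the recovered reads also called 0 genes, and DESeq2 called 29, of which 1 was a member, Mrps14. In limma, 33 members (42.9%) had a positive log2 fold change, against 48.4% of tested genes. The median was -0.09 for members and -0.02 for all tested genes, and in DESeq2 both were at 0.02. At an unadjusted p under 0.05, 4 members (5.19%) were higher in cKO, where the background was 3.52% of tested genes, and 5 (6.49%) were lower, where it was 4.98%. Medians were -0.06 for the large and -0.10 for the small subunit, and -0.23 for members with a bacterial counterpart against -0.02 for mitochondria-specific ones. That order did not hold in each sex: it was -0.05 against -0.25 in males and 0.02 against 0.05 in females. Without the libraries labelled male cKO 3 and female cKO 3, which held Nkx6-1 reads, the median member stood at -0.25, against -0.005 for all tested genes. Without male cKO 3 alone it was -0.23, against -0.002, and without male cKO 1 it was 0.14, against -0.02. The sign of the member median thus changed with the male cKO library that was left out. Each of these fits kept a single male cKO library, so only sizes are given here.

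**Figure D3:**
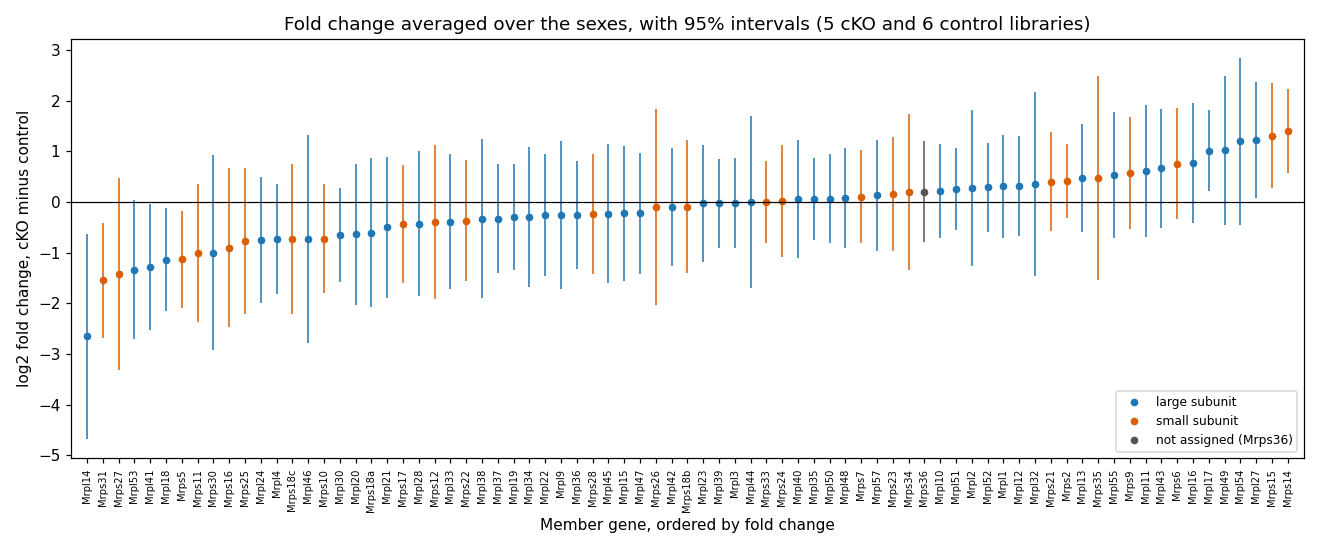
Dots give the limma log2 fold change (cKO minus control, averaged over the sexes) of each of the 77 genes, with 95% intervals, ordered by size and coloured by subunit. Values run from -2.65 for Mrpl14 to 1.39 for Mrps14, and the intervals of 9 genes leave out 0 before any adjustment.

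In the same libraries 73 of 77 genes of cytosolic ribosomal proteins had a positive averaged log2 fold change, with a median of 0.31, and 0 were called. Astrocyte markers had a median log2 fold change of 0.93 (15 of 15 positive) and oligodendrocyte markers one of -0.74 (2 of 15 positive). Blood markers had a median of -1.92 (0 of 8 positive) and cell-cycle genes one of -0.96 (1 of 17 positive). Medians were -0.13 for microglial (5 of 12 positive), 0.41 for endothelial (11 of 12), 0.39 for neuronal (6 of 10) and 0.03 for oligodendrocyte precursor markers (6 of 9). No gene of these lists was called, and their part in the values of the members was not tested.

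Precision was limited. The median SE of a member's averaged log2 fold change was 0.57 (range 0.35 to 0.99), and the 95% interval lay wholly between -1 and 1 for 5 members. For the others a 2-fold change in at least 1 direction lay within the interval. A fold change of 2 or more was seen in 15 members, a share to be read against 13.7% of tested genes.

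Mrps14, on chr1:160195215-160202170, encodes the counterpart of bacterial S14 in the head of the small subunit. It had normalized counts of 53.8, 44.6 and 53.6 (male control), 167 and 352 (male cKO), 45.5, 45.6 and 34.3 (female control) and 40.4, 75.3 and 74.5 (female cKO). The 2 male cKO libraries stood above every other library, and the female groups overlapped. The averaged log2 fold change was 1.39 (SE 0.40, limma adjusted p = 0.438), the smallest p of the family. Over the alternatives of the processing that leave out 1 library, the change ran from 1.13 to 1.66.

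Mrps15, on chr4:126046925-126055532, is the counterpart of S15, which in bacteria binds ribosomal RNA early in assembly. Its counts were 9.04, 29.6 and 42.9 (male control), 62.3 and 101 (male cKO), 41.2, 25.6 and 43.2 (female control) and 58.5, 79.1 and 61.1 (female cKO). All 5 cKO libraries lay above all 6 controls, the only member of which this was true (1.3%, where the background was 0.203% of tested genes). The averaged log2 fold change was 1.31 (SE 0.50, limma adjusted p = 0.486). Neither Mrps14 nor Mrps15 has an exon overlap or a near-identical copy in the annotation.

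Mrpl17, on chr7:105803206-105811099, is a large-subunit protein with a bacterial counterpart near the peptide exit. Its counts were 96.98, 123 and 47.1 (male control), 134 and 328 (male cKO), 75.01, 91.3 and 151 (female control) and 284, 129 and 121 (female cKO). Male cKO 3 and female cKO 1 were high and the other cKO libraries lay near the upper controls. The log2 fold change was 1.01 (SE 0.38, limma adjusted p = 0.486). Mrpl27, on chr11:94653767-94660089, has a bacterial counterpart that reaches toward the catalytic centre, and it had counts of 22.1, 32.1 and 15.002 (male control), 52.1 and 135 (male cKO), 35.05, 18.9 and 13.97 (female control) and 19.5, 34.7 and 46.2 (female cKO). Again male cKO 3 was the highest library, and the female groups overlapped. Its log2 fold change was 1.22 (SE 0.55, limma adjusted p = 0.55). Mrpl27 shares 75 exonic bases with Eme1 on the opposite strand and has a near-identical copy.

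Mrps31, on chr8:22411361-22429665, encodes a mitochondria-specific protein of the small subunit. Its counts were 70.3, 40.04 and 51.4 (male control), 4.27 and 7.12 (male cKO), 93.5, 23.4 and 57.1 (female control) and 24.4, 81.1 and 55.2 (female cKO). Both male cKO libraries lay far below all other libraries, and the female groups overlapped fully. Averaged over the sexes the log2 fold change was -1.55 (SE 0.55, limma adjusted p = 0.465).

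Mrpl14, on chr17:45686322-45698495, is the counterpart of bacterial L14 at the face where the subunits meet, where assembly factors bind before the subunits join. It was read thinly, with counts of 24.1, 8.76 and 2.14 (male control), 0 and 4.27 (male cKO), 22.7, 12.8 and 15.2 (female control) and 0, 0 and 4.47 (female cKO). The 3 female cKO libraries together held 3 reads against 72 in the female controls, a ratio of 0.0668 after scaling by the library factors (95% exact interval 0.0135 to 0.203, counting error only). In males the 2 cKO libraries held 3 reads against 70, a ratio of 0.111 (0.0224 to 0.338). In males 1 control overlapped the cKO libraries, and in females none did. Exons of Mrpl14 share 106 bases with Tmem63b on the opposite strand, so these reads are uncertain. The averaged log2 fold change was -2.65 (SE 0.98, limma adjusted p = 0.486), and the repeat of female cKO 2 labelled male held 3 reads.

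Mrps5, on chr2:127587222-127606829, is the counterpart of S5, which lines the entry of the messenger RNA in bacteria. Its counts were 76.4, 89.2 and 96.4 (male control), 48.6 and 96.9 (male cKO), 68.9, 106 and 139.7 (female control) and 9.75, 34.7 and 49.2 (female cKO). All female cKO libraries lay below every control, and the male groups overlapped. Its averaged log2 fold change was -1.13 (SE 0.46, limma adjusted p = 0.512). Mrpl18, on chr17:12911349-12916345, has a bacterial counterpart that binds the small RNA of the large subunit. Its counts were 102, 70.9 and 139 (male control), 23.04 and 209 (male cKO), 90.998, 137 and 132 (female control) and 38.3, 21.2 and 47.7 (female cKO), low in 4 cKO libraries and highest in the library labelled male cKO 3. The averaged log2 fold change was -1.14 (SE 0.49, limma adjusted p = 0.545). Without male cKO 3 it was -1.92, and without male cKO 1 it was -0.36. Exons of Mrpl18 share 124 bases with Tcp1 on the opposite strand, and Mrps5 has a near-identical copy.

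**Figure D4:**
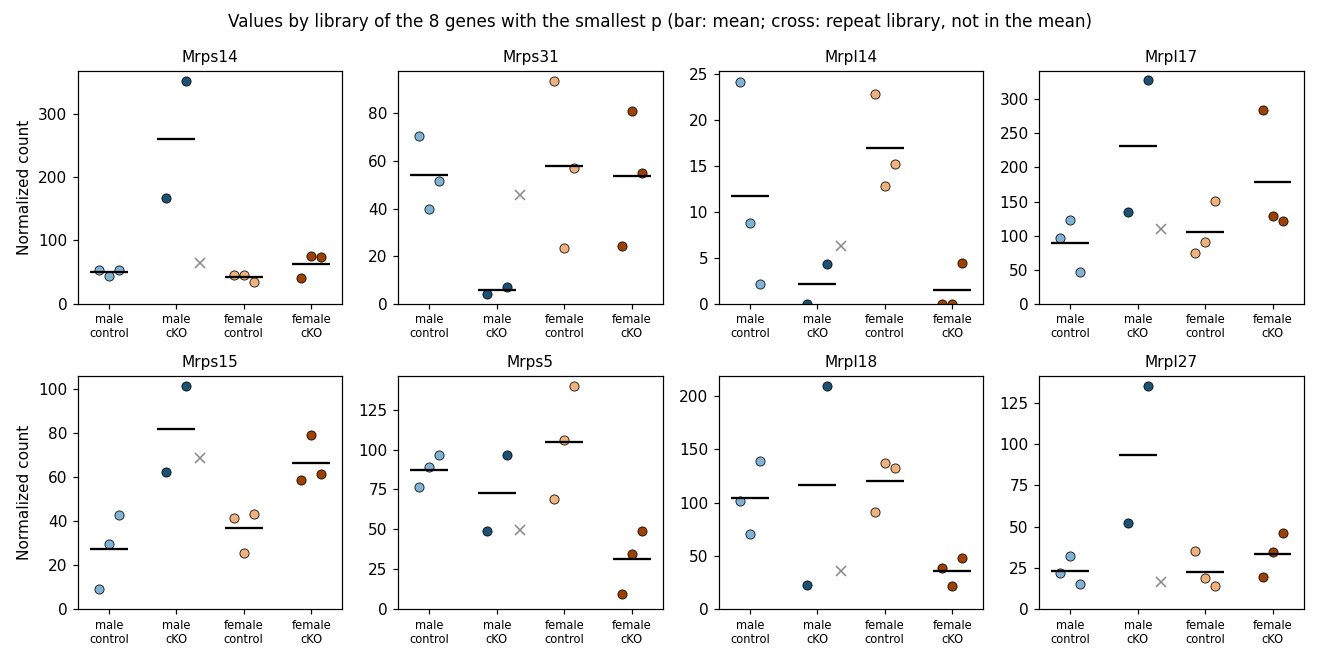
Normalized counts by library of the 8 genes with the smallest p in the averaged comparison, with bars for group means and a cross for the library labelled male cKO 2, a repeat that enters no mean. Mrps15 shows all 5 cKO libraries above all 6 controls. Mrps14 and Mrps31 separate in males, at 167 and 352 and at 4.27 and 7.12 in the cKO libraries.

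In males, 3 control libraries were compared with 2 cKO libraries, and again 0 members and 0 of 13269 genes had an adjusted p under 0.05 in limma (0.0%), with 1283 genes at an unadjusted p under 0.05. edgeR called 0 genes, while DESeq2 called 83, 2 of them members: Mrps14 and Mrps31. At an unadjusted p under 0.05 limma had 4 members higher (5.19%, background 4.14%) and 4 lower (5.19%, background 5.52%). The median member stood at -0.10, against -0.04 for all tested genes. In edgeR the member median had the opposite sign, at 0.10. Groups did not overlap for 10 of 77 members above (background 12.6%) and 10 of 77 below (background 14.1%), shares near the background. Without male cKO 1 the member median was 0.34, against -0.02 for all tested genes. Without the library labelled male cKO 3, which held Nkx6-1 reads, the member median was -0.64, against 0.002. The direction of the member median in males hence rests on which of these libraries is kept. Both fits kept a single male cKO library, so only sizes are given here.

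The leading members in males were Mrps14, with a log2 fold change of 2.24 (SE 0.59, limma adjusted p = 0.238), and Mrps31, with -3.03 (SE 0.82, limma adjusted p = 0.256). DESeq2 gave Mrps14 a log2 fold change of 2.36 (adjusted p = 0.0141) and Mrps31 one of -3.28 (adjusted p = 0.0428). Over all alternatives the adjusted p ran from 0.0141 to 0.801 for Mrps14 and from 0.0428 to 0.801 for Mrps31. Mrpl41, a mitochondria-specific large-subunit protein, had counts of 43.7, 50.5 and 27.9 in male controls and 2.56 and 7.12 in male cKO libraries. These groups did not overlap, and the log2 fold change was -2.91 (SE 0.89, limma adjusted p = 0.277). Mrpl53, also specific to mitochondria, had 37.7, 35.9 and 53.6 in male controls and 1.71 and 21.4 in male cKO. Its log2 fold change was -2.46 (SE 0.98, limma adjusted p = 0.42), and it was -3.98 without male cKO 3 and -0.93 without male cKO 1. An annotated gene model on the same strand covers 418 exonic bases of Mrpl53, so its count is uncertain.

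Mrps18c had 57.8, 14.2 and 27.9 in male controls and 2.56 and 7.12 in male cKO, without overlap and with a log2 fold change of -2.46 (SE 1.06, limma adjusted p = 0.447). In the same contrast Mrps15 stood at 1.76 (SE 0.74, limma adjusted p = 0.43), Mrpl17 at 1.33 (SE 0.57, limma adjusted p = 0.442) and Mrpl27 at 1.88 (SE 0.82, limma adjusted p = 0.454). All 3 had both male cKO libraries above the controls. Their size moved with single libraries. Without male cKO 3 the value was 0.69 for Mrpl17 and 1.203 for Mrpl27, without male cKO 1 it was 1.97 and 2.56, and without male control 1 it was 1.13 for Mrps15, against 2.20 without male control 3. In males the astrocyte markers had a median log2 fold change of 1.78 (15 of 15 positive) cell-cycle genes one of -1.68 (1 of 17 positive) and blood markers one of -2.09 (0 of 8 positive), and the part of these lists in the members' values was not tested.

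In females, with 3 libraries in each group, limma called 0 members and 0 of 13269 genes (0.0%), with 516 genes at an unadjusted p under 0.05. edgeR called 0 genes and DESeq2 called 2, neither of them a member. At an unadjusted p under 0.05, 1 member was higher (1.3%, background 1.82%) and 4 were lower (5.19%, background 2.07%). A positive fold change was seen in 39 members (50.6%), against 49.8% of tested genes. The median member stood at 0.03 and the median of all tested genes at -0.0013. Groups did not overlap for 6 members above (7.79%, background 4.39%) and 5 below (6.49%, background 4.72%). The 6 above were Mrpl11, Mrpl51, Mrpl54, Mrps15, Mrps18c and Mrps2, and the 5 below were Mrpl14, Mrpl18, Mrps11, Mrps16 and Mrps5. Exons of Mrps11 overlap Mrpl46 on the opposite strand, so the count of Mrps11 is uncertain. Median log2 fold changes in females were 0.10 for astrocyte (11 of 15 positive), -0.41 for oligodendrocyte (2 of 15) and 0.20 for oligodendrocyte precursor markers (8 of 9). They were 0.60 for microglial (11 of 12 positive), 0.34 for endothelial (9 of 12), 0.26 for neuronal (7 of 10) and -1.71 for blood markers (0 of 8). Cell-cycle genes stood at -0.42 (6 of 17 positive), and the part of these lists was not tested.

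Mrps5 had the smallest p in females, with 68.9, 106 and 139.7 in controls and 9.75, 34.7 and 49.2 in cKO libraries and a log2 fold change of -1.92 (SE 0.61, limma adjusted p = 0.999), with -1.26 without female cKO 1 and -2.38 without female cKO 3. Mrpl18 had 90.998, 137 and 132 in controls and 38.3, 21.2 and 47.7 in cKO libraries, with -1.77 (SE 0.65, limma adjusted p = 0.999). For Mrpl14, described above, the log2 fold change was -3.31 (SE 1.30, limma adjusted p = 0.999). In all 3 the female groups did not overlap, and none passed over all genes.

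Mrps16, whose bacterial counterpart acts in small-subunit assembly and which is mutated in a human disorder of mitochondrial translation, had counts of 43.2, 4.59 and 32.1 (male control), 17.1 and 56.996 (male cKO), 52.9, 40.1 and 46.98 (female control) and 2.09, 34.7 and 4.47 (female cKO). Among females, cKO 1 and cKO 3 were low and cKO 2 lay just below the controls. The female log2 fold change was -2.49 (SE 1.01, limma adjusted p = 0.999), and 2 near-identical copies of Mrps16 are annotated. Mrpl1, the counterpart of L1, which in bacteria moves spent transfer RNA out of the ribosome, had 81.2, 32.3 and 16.5 in female controls and 127, 116 and 56.7 in female cKO libraries. The groups overlapped, and the log2 fold change was 1.39 (SE 0.65, limma adjusted p = 0.999), with 0.87 without female control 3 and 1.98 without female control 1.

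Among the remaining leading members in females, Mrpl54, specific to mitochondria, had 5.53, 5.01 and 2.54 in controls and 22.3, 44.4 and 10.4 in cKO libraries, at 2.15 (SE 1.06, limma adjusted p = 0.999). Mrps2, with a bacterial counterpart, had 63.9, 52.3 and 87.6 and 139, 92.6 and 136, at 0.85 (SE 0.47, limma adjusted p = 0.999). Mrpl51, specific to mitochondria, had 70.7, 38.4 and 60.9 and 89.8, 77.2 and 137, at 0.83 (SE 0.52, limma adjusted p = 0.999). In each of these 3 the cKO libraries lay above all female controls.

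Effects in males and females were then set side by side. Of 77 members, 38 (49.4%) had a fold change of the same sign in males and females, against 54.4% of tested genes. The difference of the effects (female minus male) was called for 0 members and 0 of 13269 genes in limma (0.0%), with 735 genes at an unadjusted p under 0.05. edgeR called 0 genes and DESeq2 called 11, with no member among them. Unadjusted, 4 members had a higher effect in females (5.19%, background 3.01%) and 2 a lower one (2.6%, background 2.52%). The difference was above 0 in 38 members, against 52.0% of tested genes. The median difference was -0.05 for members and 0.05 for all tested genes. Without male cKO 1 the member median was -0.60, and without male cKO 3 it was 0.58. For the same difference, astrocyte markers had a median of -1.64 (0 of 15 positive) and cell-cycle genes one of 1.32 (16 of 17 positive), and their part in the members' values was not tested.

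**Figure D5:**
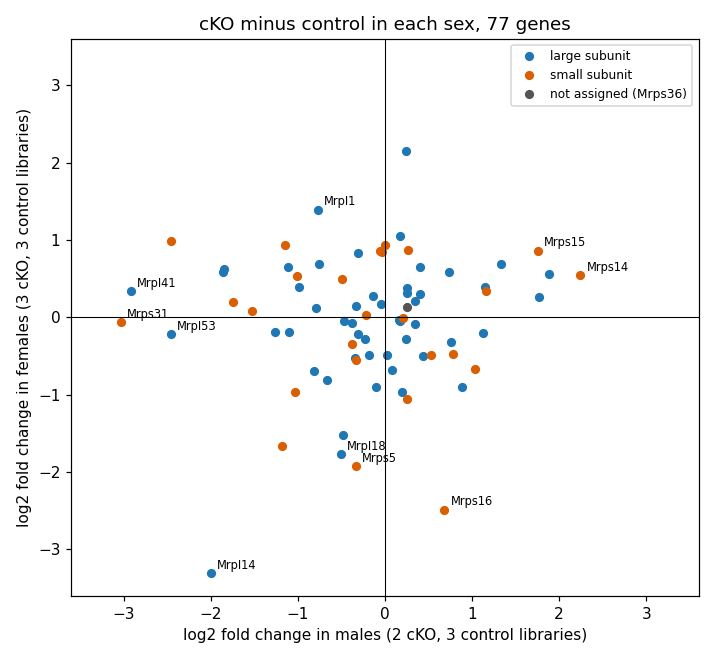
Each point is 1 of the 77 genes, placed by its log2 fold change (cKO minus control) in males, from 2 cKO and 3 control libraries, and in females, from 3 of each. Mrps31 and Mrpl41 lie far left near 0 in females. Mrps5, Mrpl18 and Mrps16 lie low and are closer to 0 in males, where Mrps16 is on the positive side. A sign is shared by 38 of 77 points.

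Mrpl41 had the smallest unadjusted p for a difference. Its female counts were 51.6, 46.8 and 15.2 in controls and 43.9, 77.2 and 22.4 in cKO libraries, overlapping, while male cKO libraries were low. The difference was 3.25 (SE 1.19, limma adjusted p = 0.884). For Mrps31 it was 2.97 (SE 1.09, limma adjusted p = 0.884), for Mrps18c 3.45 (SE 1.42, limma adjusted p = 0.884) and for Mrpl1 2.16 (SE 0.98, limma adjusted p = 0.894). In females, Mrps18c counts were 14.8, 5.57 and 8.89 in controls and 15.3, 23.2 and 19.4 in cKO libraries, with the cKO libraries above the controls, whereas in males they lay below. Male counts of Mrpl1 were 177, 73.8 and 47.1 in controls and 40.97 and 59.8 in cKO libraries.

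The difference was negative for Mrps14, at -1.70 (SE 0.80, limma adjusted p = 0.894), and for Mrps16, at -3.17 (SE 1.51, limma adjusted p = 0.894). Mrpl20, whose bacterial counterpart joins the large subunit early, had counts of 29.1, 30.9 and 60.01 (male control), 1.71 and 41.3 (male cKO), 50.4, 28.4 and 13.97 (female control) and 36.9, 46.3 and 41.7 (female cKO). Male cKO 1 was the lowest library. Its difference was 2.45 (SE 1.34, limma adjusted p = 0.894). Mrps18a had counts of 42.2, 30.9 and 30.004 (male control), 2.56 and 25.6 (male cKO), 13.5, 9.46 and 44.4 (female control) and 38.3, 55.97 and 10.4 (female cKO), with male cKO 1 lowest, and a difference of 2.47 (SE 1.41, limma adjusted p = 0.894).

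Among controls, female and male libraries were not told apart in this family. Limma called 5 of 13269 genes between the sexes (0.0377%) and 0 members, and 0 members had an unadjusted p under 0.05, the lowest being 0.0685. Of tested genes, 0.678% were higher and 1.14% lower in females at that p. The log2 difference was above 0 in 40 members (51.9%), against 44.3% of tested genes. edgeR called 5 genes and DESeq2 6, again without a member. The smallest p belonged to Mrpl1, with 177, 73.8 and 47.1 in male and 81.2, 32.3 and 16.5 in female controls, a log2 difference (female minus male) of -1.25 (SE 0.65, limma adjusted p = 1). Mrpl10 was the only member whose control groups did not overlap (1.3%, where the background was 3.04% above and 4.96% below): 31.7, 58.4 and 30.004 in males and 80.5, 79.05 and 66.02 in females, a difference of 0.95 (SE 0.59, limma adjusted p = 1). Mrps2 differed by -0.81 (SE 0.47, limma adjusted p = 1) and Mrps18c by -1.55 (SE 0.95, limma adjusted p = 1).

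For the other leading members of that comparison the controls overlapped. Mrpl49, specific to mitochondria, had 13.1, 3.75 and 17.1 in male and 7.38, 43.98 and 41.9 in female controls, and its cKO libraries had 51.2 and 24.2 in males and 14.6, 19.3 and 87.96 in females. Mrps28 had 25.1, 68.4 and 38.6 in male and 13.5, 18.9 and 38.1 in female controls, and 12.8 and 29.9 and 46.6, 19.3 and 34.3 in the cKO libraries of the same order. Log2 differences among controls were 1.25 (SE 0.95, limma adjusted p = 1) for Mrpl49, -1.56 (SE 1.24, limma adjusted p = 1) for Mrps26, 1.23 (SE 1.01, limma adjusted p = 1) for Mrps16 and -0.89 (SE 0.77, limma adjusted p = 1) for Mrps28. Male and female libraries carry separate ranges of library numbers, so sex and library series cannot be told apart. Between these controls, blood markers had a median log2 difference of -3.30 (0 of 8 positive) and astrocyte markers one of 0.85 (15 of 15 positive), and their part was not tested.

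No other gene of mitochondrial translation was called in the averaged comparison, where 0.0% of tested genes were. Of 6 tested ribosomal subunits with other names (7 listed), 4 had a positive averaged log2 fold change, with a median of 0.21; Aurkaip1, a small-subunit protein, stood at 0.57 (SE 0.42, limma adjusted p = 0.745), Gadd45gip1, a large-subunit protein, at -0.82 (SE 0.77, limma adjusted p = 0.808) and Chchd1, of the small subunit, at -0.75 (SE 0.92, limma adjusted p = 0.857). Of 16 translation factors 5 were positive, with a median of -0.14. Mtif3, an initiation factor, stood at -1.97 (SE 0.86, limma adjusted p = 0.549), Lrpprc, which stabilises mitochondrial messenger RNAs, at -0.65 (SE 0.35, limma adjusted p = 0.625) and Taco1, an activator of cytochrome oxidase subunit translation, at -1.21 (SE 0.73, limma adjusted p = 0.665).

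Of 22 tested (23 listed) mitochondrial aminoacyl-tRNA synthetases and related enzymes, which charge transfer RNAs, 8 had a positive fold change, with a median of -0.56, against -0.02 for all tested genes. Gatb, part of the enzyme that makes glutaminyl transfer RNA, stood at -1.81 (SE 0.82, limma adjusted p = 0.55), Iars2 at 0.68 (SE 0.32, limma adjusted p = 0.567) and Nars2 at -1.26 (SE 0.59, limma adjusted p = 0.574). Of 27 tested (32 listed) assembly factors 10 were positive, with a median of -0.23. Gtpbp10, a GTPase of large-subunit assembly, stood at -1.44 (SE 0.62, limma adjusted p = 0.548), the ribosomal RNA methyltransferase Mrm1 at -1.94 (SE 0.87, limma adjusted p = 0.549) and Rbfa, a small-subunit assembly factor, at -1.31 (SE 0.76, limma adjusted p = 0.651). Of 17 tested (18 listed) genes of mitochondrial transcription and its control 8 were positive, with a median of -0.12. Tfam, which packages and transcribes mitochondrial DNA, stood at 1.54 (SE 0.53, limma adjusted p = 0.46), the coactivator Ppargc1b at -2.15 (SE 1.04, limma adjusted p = 0.588) and Mtpap, the mitochondrial poly(A) polymerase, at -0.78 (SE 0.42, limma adjusted p = 0.625). None of these passed over all genes.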

How the data were processed

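RNA of GFP astrocytes sorted from mouse spinal cord was measured in 12 libraries. Per the labels' protocols, RNA was extracted with the RNeasy Micro Kit, and 10 ng entered Trio RNA-seq V2 libraries read in paired-end mode. The submitters' processing notes name mm10 as the build, and DESeq2 1.20.0, STAR 2.5.0a, MultiQC 0.9 and FastQC 0.10.1 as tools with no role stated. For the counting tool, annotation and strand setting, the sources used here give nothing.

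The deposited table holds a normalized signal per gene: 100% of the values were whole multiples of 1 step per library, within 0.01 reads, so the authors' signal is gene counts divided by 1 factor per library. Whole reads were recovered from it. Of 24421 entries, 27 carry a date in place of a gene name and 6546 are 0 throughout.

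Genes with a value of 10 or more in at least 3 of 12 columns were tested, 13269 in all. A limma model (3.58.1, R 4.3.3) with intensity trend and robust variance was fitted to log2(value + 1) in 11 libraries, with 1 mean per group and no replicate block. Fold changes are on that scale, which understates those of low genes. Benjamini-Hochberg adjustment ran over all 13269 genes, with a threshold of 0.05. Recovered reads were also tested with edgeR 4.0.16 and DESeq2 1.42.0. The fit was also run on simulated data with known changes, placed only in genes above the median count. The median member lay below the median of all tested genes in every library. That run hence does not measure power at the level of most members. Gene positions, overlaps and copies came from GENCODE, with copies found by BLAST 2.17.0, and promoters from RefSeq. Depth and the exact intervals of the Mrpl14 read ratios cover counting error only. The intervals of log2 fold changes come from the limma fit and reflect the spread among libraries.

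Named in full are, per comparison, the 8 members with the smallest unadjusted p, a fixed set of 13 members with known roles, and the 5 highest and 5 lowest per kb; of each further list, up to 3 genes are named. The members, lists and comparisons were chosen with earlier results of these data known. Alternatives covered the repeated library, the pseudocount, the filter, scaling, the test, a replicate block and leaving out each library.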

Additional observations from a re-analysis of the deposited data

How the results depend on the processing

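This check covered 27 pairs of a leading member and a comparison, each with an unadjusted p under 0.05 in the main fit. The comparison of control sexes had no such member, and members named only for other reasons were not covered. In 670 of 673 values of these pairs under another setting the direction and the side of the threshold held. Choosing pairs by a small p favours a stable direction, so the share does not describe the other members. The other 3 came from DESeq2 on recovered reads, which passed Mrps14 in the averaged comparison (1.47, adjusted p = 0.0392, against 0.0392 to 0.838 over its alternatives) and Mrps14 (2.36) and Mrps31 (-3.28) in males. DESeq2 called 29 genes in the averaged comparison, 1 of them a member, 83 in males, 2 of them members, 2 in females and 11 for the difference of the effects; the cause of the higher counts was not tested. Without both cKO replicate 3 libraries, limma called 2 genes averaged and 17 in males, with a member median of -0.64 in males and 0.43 for the difference. Between control sexes, 5 genes became 0 with all 12 libraries, 0 with the repeat kept in place of its female copy and 1 with a value of 10 or more in 6 or more columns.

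Leaving out 1 library at a time gave 0 to 2 called genes and member medians of -0.23 to 0.14 averaged, 0 to 22 and -0.64 to 0.34 in males, 0 to 1 and -0.07 to 0.13 in females, 0 to 1 and -0.60 to 0.58 for the difference, and 2 to 6 and -0.12 to 0.15 between control sexes, with 0 members called throughout. In males, 22 genes were called without male cKO 3, 14 without female control 2 and 1 without male cKO 1. The 1 gene in females came without female control 2, the 1 for the difference without male cKO 1 or female cKO 2, and the lowest count between control sexes, 2, without male control 1. In males the member median was -0.10 in limma and 0.10 in edgeR. Upper quartile scaling shifted the median of all genes by -0.0965 averaged, -0.143 in males and 0.0897 for the difference. The all-gene medians were then -0.12, -0.18 and 0.14, and the member medians of -0.19, -0.24 and 0.05 lay -0.07, -0.06 and -0.09 from them.

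The replicate numbers did not pair the samples: same-numbered libraries of different groups correlated at -0.107 to 0.0584 over 15 pairs, 0 of them over 0.1, against -0.141 to 0.144 for other pairs. With the replicate block, limma called 0 genes in the 4 cKO comparisons and 5 between control sexes, and the averaged member median was -0.10.

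The main limits are depth and number: 1 read was worth 0.417 to 2.14 normalized counts, male cKO had 2 libraries, and up to 14 members had 5 reads or fewer in a library.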

Other observations

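Many members share a start region with a neighbour. Neighbours were protein-coding genes starting head to head on the opposite strand within 1000 bases, with an overlap of no more than 100 bases. In GENCODE, 19 of the 77 members (24.7%) had such a neighbour, against 10.2% of tested genes with a GENCODE match (1265 of 12373). Among them were Mrps12, 172 bases from Sars2, the mitochondrial seryl-tRNA synthetase, Mrpl49, 59 bases from Fau, which encodes a cytosolic ribosomal protein, and Mrpl32, 75 bases from the proteasome gene Psma2. Of these neighbours 18 were tested, 0 were called in the averaged comparison, and 10 had the sign of their member. Apba3, 26 bases from Mrpl54, had an averaged log2 fold change of 1.49 (SE 0.71, limma adjusted p = 0.582) beside 1.196 (SE 0.79) for Mrpl54. Ncapd2, 100 bases from Mrpl51, had -1.92 (SE 0.85, limma adjusted p = 0.549) beside 0.26 (SE 0.39) for Mrpl51. Fau had -0.03 (SE 0.35) beside 1.02 (SE 0.71) for Mrpl49. These values are descriptions, and without known strand use the counts of overlapping first exons are uncertain.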
